A study of Mus musculus with 27 samples.

Results

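The brush border digestive enzymes described here are 9 genes, taken by symbol from a table of read counts for 23420 mouse genes. They comprise 4 glycosidases (Lct, Sis, Mgam and Treh), 4 peptidases (Anpep, Enpep, Dpp4 and Mep1a) and the phosphatase Alpi. Each of the 9 was tested in every comparison. The libraries came from C57BL/6 mice that received ethanol at 15% or water for 8 weeks, and the study asked how alcohol feeding affects intestinal permeability in the animal and in organoids of colon and jejunum. Organoids are epithelial cultures grown in a dish from intestinal crypts. Ethanol was given to the mice, and the labels describe no ethanol in the culture medium and give neither the passage nor the medium of the cultures.

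Each of the 27 libraries belongs to 1 of 8 groups. Jejunum organoids were made from ethanol mice (4 libraries) and control mice (4), and colon organoids from ethanol mice (2) and control mice (2). Jejunum tissue came from ethanol mice (4) and control mice (3), and colon tissue from ethanol mice (4) and control mice (4). All mice were of the same strain, and the labels name no genotype, sex or age.

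Brush border enzymes are anchored in the microvillus membrane of enterocytes, where they make the last cuts in dietary sugars and peptides before uptake. Lct splits the milk sugar lactose, Sis splits sucrose and isomaltose, Mgam trims starch fragments from their ends and Treh splits trehalose. Anpep removes neutral residues and Enpep acidic residues from the amino end of peptides, Dpp4 removes dipeptides that end in proline or alanine, Mep1a is the alpha subunit of the metalloprotease meprin, and Alpi removes phosphate groups from lipopolysaccharide and nucleotides. The genes are switched on as cells leave the crypt, and factors of the CDX, HNF4 and GATA families are known to bind the promoters of several of them, Sis and Lct being the best studied.

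Lct was abundant in jejunum tissue and scarce in organoids, Sis abundant in jejunum tissue and jejunum organoids, and Mep1a abundant in tissue of both segments. The promoters of these 3 genes, whose transcripts were distributed very differently, follow. They are RefSeq sequences of build GRCm38.p6, printed on the gene's own strand from 250 bases before to 50 bases after its start, at chr1:128328269-128328568, chr3:72967814-72968113 and chr17:43502724-43503023, all on the minus strand. Capitals mark every match, on either strand, to GATAA (GATA factors), TTTAT (CDX2) and CAAAGT (HNF4).
Lct: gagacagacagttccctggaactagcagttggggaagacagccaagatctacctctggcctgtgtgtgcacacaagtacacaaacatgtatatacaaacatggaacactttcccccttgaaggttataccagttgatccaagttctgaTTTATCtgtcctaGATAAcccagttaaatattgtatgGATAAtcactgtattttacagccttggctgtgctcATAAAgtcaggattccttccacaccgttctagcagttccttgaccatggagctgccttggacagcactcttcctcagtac
Sis: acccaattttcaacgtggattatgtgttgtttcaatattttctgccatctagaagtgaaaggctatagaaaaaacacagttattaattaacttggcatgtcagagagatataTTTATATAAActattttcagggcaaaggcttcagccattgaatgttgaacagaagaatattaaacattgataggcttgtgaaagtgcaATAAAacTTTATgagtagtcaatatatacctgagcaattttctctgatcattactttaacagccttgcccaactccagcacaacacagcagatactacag
Mep1a: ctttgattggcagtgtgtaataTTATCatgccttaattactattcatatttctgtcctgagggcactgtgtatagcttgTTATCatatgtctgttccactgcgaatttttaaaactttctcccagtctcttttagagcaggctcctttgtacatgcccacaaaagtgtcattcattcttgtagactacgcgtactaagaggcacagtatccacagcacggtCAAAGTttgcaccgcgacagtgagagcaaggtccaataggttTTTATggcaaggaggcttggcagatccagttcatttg
In the Lct window the CDX2 match furthest from the start overlaps a GATA match on the opposite strand. GATAA was found in 5 of the 9 windows (Lct, Mgam, Dpp4, Enpep and Mep1a), against 25.4% of 32851 mouse promoter windows of the same length. TTTAT was found in 7 of 9 (all but Anpep and Treh) against 40.0%, and CAAAGT in 3 of 9 (Mep1a, Alpi and Treh) against 14.4%. These matches describe letters in the windows and were not tested against the expression values. In mm10 with the GENCODE annotation, the other genes lie at chr1:87098002-87101606 (Alpi), chr2:62330073-62412231 (Dpp4), chr3:129269175-129332720 (Enpep), chr6:40628831-40769123 (Mgam), chr7:79821803-79861059 (Anpep) and chr9:44673233-44686305 (Treh).

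Total counts per library lay between 1337068 and 16312562. The ribosomal entry Rn45s took 53.4 to 84.3% of the counts in jejunum tissue and 18.3 to 48.3% elsewhere, so levels are given as CPM outside Rn45s, which scales the remaining counts of every library to the same total. Counts outside Rn45s lay between 684906 and 7606668, lowest in control jejunum tissue (684906 to 1510057) and in control colon organoids (818240 to 2036195). The control colon organoids also had the fewest genes detected, 9951 and 11780, against 13542 and 15383 in ethanol colon organoids. The summed CPM of 6 smooth muscle markers was at most 26.8 in any organoid library and at least 232 in any tissue library. The libraries were made from the 3' ends of transcripts, so a gene's CPM does not grow with its length, although genes can differ in how well their 3' end is captured. The tests (edgeR's quasi-likelihood test, adjusted over all genes tested) used TMM scaling, which CPM does not. A gene is called where its adjusted p is under 0.05. The SE printed with a log2 fold change was worked back from the fold change and the test statistic, as this test gives none. It does not cover the shifts seen on leaving out single libraries.

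In jejunum tissue the 9 transcripts together made up 1.12% of the counts outside Rn45s in ethanol mice and 1.23% in control mice. Anpep stood 15th among all genes by mean CPM in both treatments, and Lct stood 27th in ethanol and 20th in control jejunum tissue. In jejunum organoids the sum was 0.202% for ethanol and 0.238% for control, and Sis was the most abundant member, 117th and 76th among all genes. In colon tissue the sum was 0.0620% for ethanol and 0.0884% for control. In colon organoids it was 0.0521% for ethanol and 0.0118% for control.

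**Figure D1:**
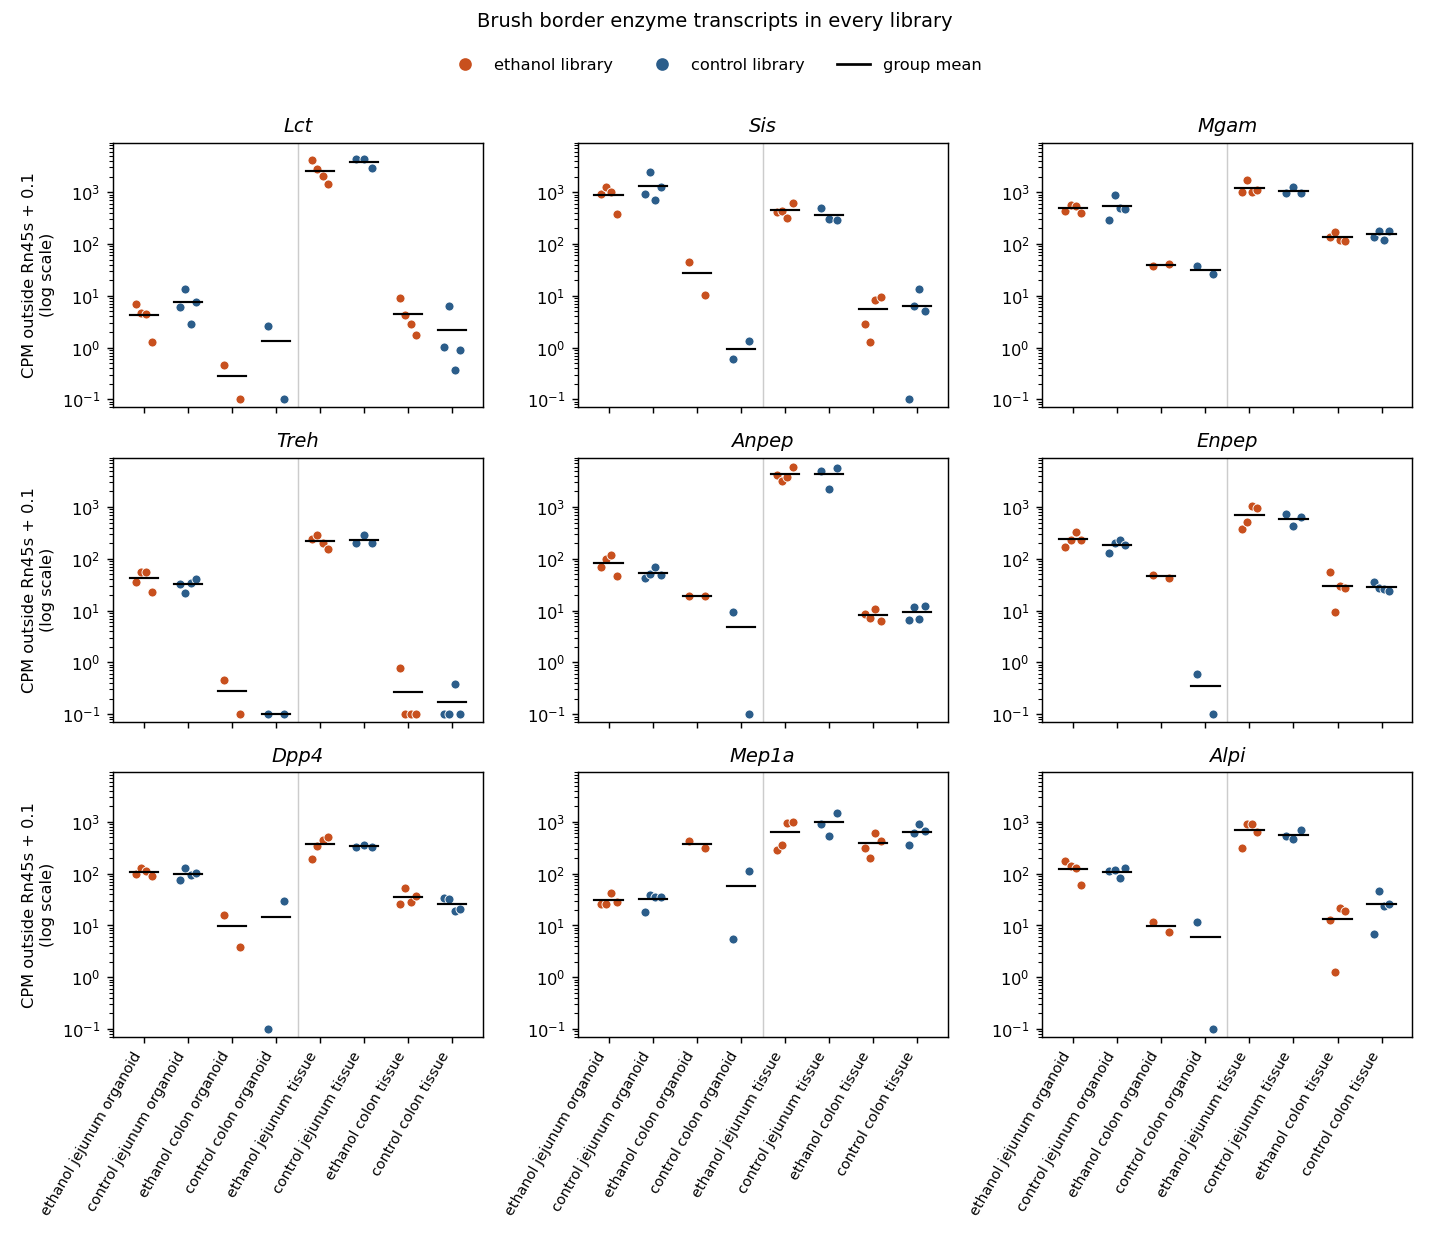
CPM outside Rn45s plus 0.1 on a log axis for each of the 9 genes, with a point per library, ethanol in orange and control in blue, and a bar at the group mean. Lct and Anpep stand above 1000 CPM only in jejunum tissue, Sis is high in jejunum organoids and jejunum tissue, and Mep1a is the member that stays high in colon tissue.

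The make-up of the group differed from place to place. In jejunum tissue Anpep and Lct led, with 38.4% and 23.4% of the summed CPM of the 9 genes in ethanol mice and 34.8% and 31.6% in control mice. In jejunum organoids Sis and Mgam led, with 44.6% and 24.02% for ethanol and 55.9% and 22.3% for control, and Lct took 0.209% of the sum for ethanol and 0.310% for control. In the colon Mep1a led in the group means, with 70.9% in ethanol and 49.8% in control organoids and 62.5% in ethanol and 71.6% in control tissue. The control colon organoids differed from each other here, since Mep1a took 7.97% and Mgam 55.8% in library 1, against 66.7% and 15.2% in library 2. These shares are descriptions and were not tested.

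**Figure D2:**
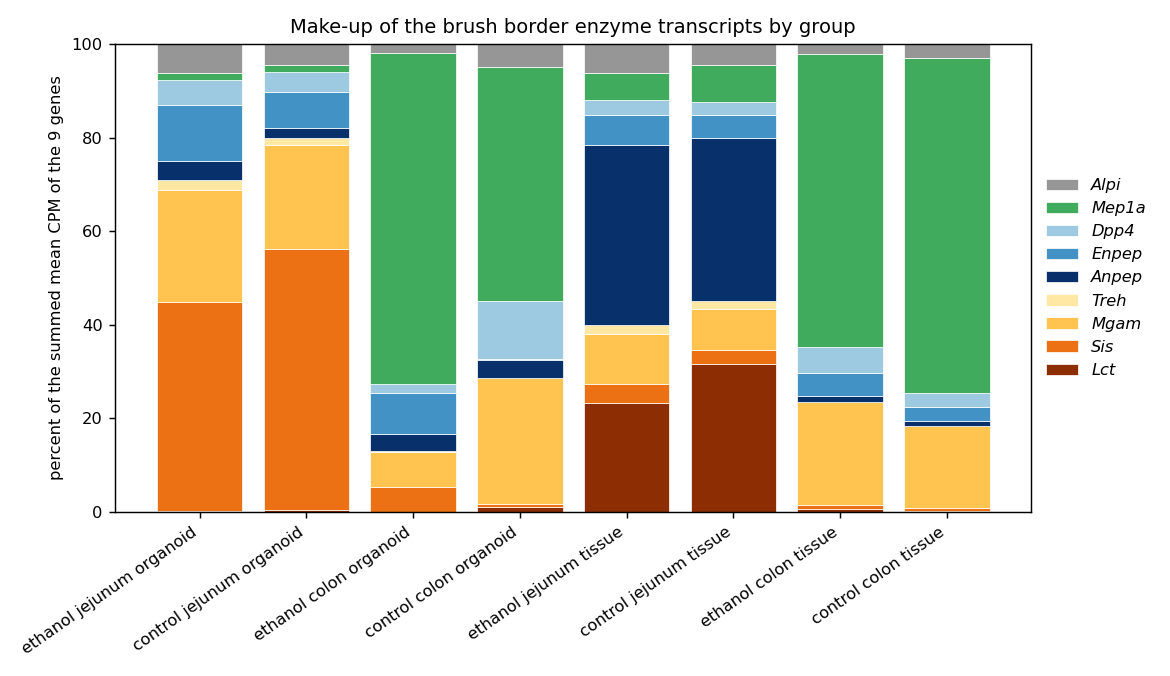
Percent of the summed mean CPM of the 9 genes taken by each gene in the 8 groups, as stacked bars. Anpep and Lct fill most of the jejunum tissue bars, Sis and Mgam most of the jejunum organoid bars, and Mep1a most of the colon tissue bars.

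Jejunum and colon tissue were compared first, within each treatment. All 9 genes were higher in jejunum than in colon tissue of ethanol mice, where 22.1% of all genes were called higher, and 8 of 9 were higher in control mice, where 17.1% were. The median log2 fold change of the 9 genes, jejunum over colon, was 6.21 in ethanol tissue and 4.86 in control tissue, against -0.17 and -0.36 over all genes tested. Among the sugar-splitting enzymes, Lct had 4203, 2812, 2024 and 1431 CPM in ethanol jejunum and 9.10, 4.16, 2.70 and 1.61 CPM in ethanol colon. In control mice Lct had 4310, 4446 and 2954 CPM in jejunum and 0.945, 6.22, 0.274 and 0.812 CPM in colon. Every jejunum library lay above every colon library, by 9.80 ± 0.79 (SE) on the log2 scale for ethanol (adjusted p = 8.99e-08) and 11.33 ± 0.86 for control (5.47e-08). The same complete separation was seen for 8 of the 9 genes in either treatment, all but Mep1a, against 11.1% of all genes for ethanol and 12.1% for control. Treh, which splits the sugar of fungi and insects, had 156 to 294 CPM in ethanol jejunum and 199 to 288 CPM in control jejunum, and 3 counts in all ethanol colon tissue and 1 count in all control colon tissue together. Its ratio of CPM was 1501 for ethanol (95% exact interval 513 to 7284) and 4025 for control (720 to 159200), intervals that cover counting error only. Sis and Mgam were also higher in jejunum, by 6.86 ± 0.93 and 3.69 ± 0.26 on the log2 scale in ethanol tissue and by 6.31 ± 0.94 and 3.20 ± 0.26 in control tissue.

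Among the peptidases, Anpep had 4215, 3136, 3790 and 6062 CPM in ethanol jejunum and 8.42, 7.13, 10.6 and 6.15 CPM in ethanol colon. In control mice it had 5017, 2202 and 5651 CPM in jejunum and 6.46, 11.6, 6.86 and 12.4 CPM in colon. The groups did not overlap, and Anpep was higher in jejunum by 9.61 ± 0.51 on the log2 scale for ethanol and 9.29 ± 0.51 for control. Enpep and Dpp4 were higher in jejunum by 5.17 ± 0.50 and 3.96 ± 0.33 for ethanol and by 4.86 ± 0.51 and 4.10 ± 0.35 for control, and the phosphatase Alpi by 6.21 ± 0.83 and 4.85 ± 0.80. Each of these differences had an adjusted p of 0.000348 or less.

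Mep1a stood apart in tissue. It had 284, 356, 941 and 974 CPM in ethanol jejunum against 311, 198, 620 and 422 CPM in ethanol colon, and 909, 545 and 1486 CPM in control jejunum against 350, 610, 895 and 676 CPM in control colon. The jejunum and colon ranges overlapped in both treatments. On the log2 scale it stood at 1.29 ± 0.51 in ethanol tissue (adjusted p = 0.0465) and 1.07 ± 0.54 in control tissue (0.118). The ethanol call was lost with limma-voom (0.0800), with library sizes without TMM (0.174), without the filter on low counts (0.0752), with the 2 groups fitted alone (0.0531) and on leaving out ethanol colon tissue 1, 2 or 4 (0.0844, 0.113 and 0.0698) or ethanol jejunum tissue 3 or 4 (0.133 and 0.139). The control difference passed with the 2 groups fitted alone (0.0488) and with the donor number as a block (0.0486).

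The marker lists moved with the segment as well. The summed CPM of 6 smooth muscle markers ranged between 232 and 1483 in ethanol jejunum tissue and between 3346 and 19040 in ethanol colon tissue, and in control mice between 521 and 1942 in jejunum and between 3368 and 14030 in colon, with none of the 6 at 0 in any of these groups. The top of each colon range was a single library, ethanol colon tissue 1 and control colon tissue 1, and the other colon tissues had at most 4176 CPM for ethanol and 4151 CPM for control. The summed CPM of 7 colonocyte markers was 5510 and 5349 in ethanol colon tissue 1 and 2, against 21450 and 22180 in 3 and 4. In control colon tissue it was 4291 in library 1 and 25550 to 35510 in the others. On leaving out ethanol colon tissue 1 edgeR called 8 of the 9 genes in the ethanol comparison, and without control colon tissue 1 also 8 of the 9 in the control comparison. The summed CPM of 7 general epithelial markers ranged between 7656 and 10230 in ethanol jejunum and 4983 and 6501 in ethanol colon, and between 7497 and 10390 in control jejunum and 4401 and 7555 in control colon. Their part in the segment differences was not tested, and in bulk tissue fewer enterocytes and less RNA per enterocyte cannot be told apart.

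**Figure D3:**
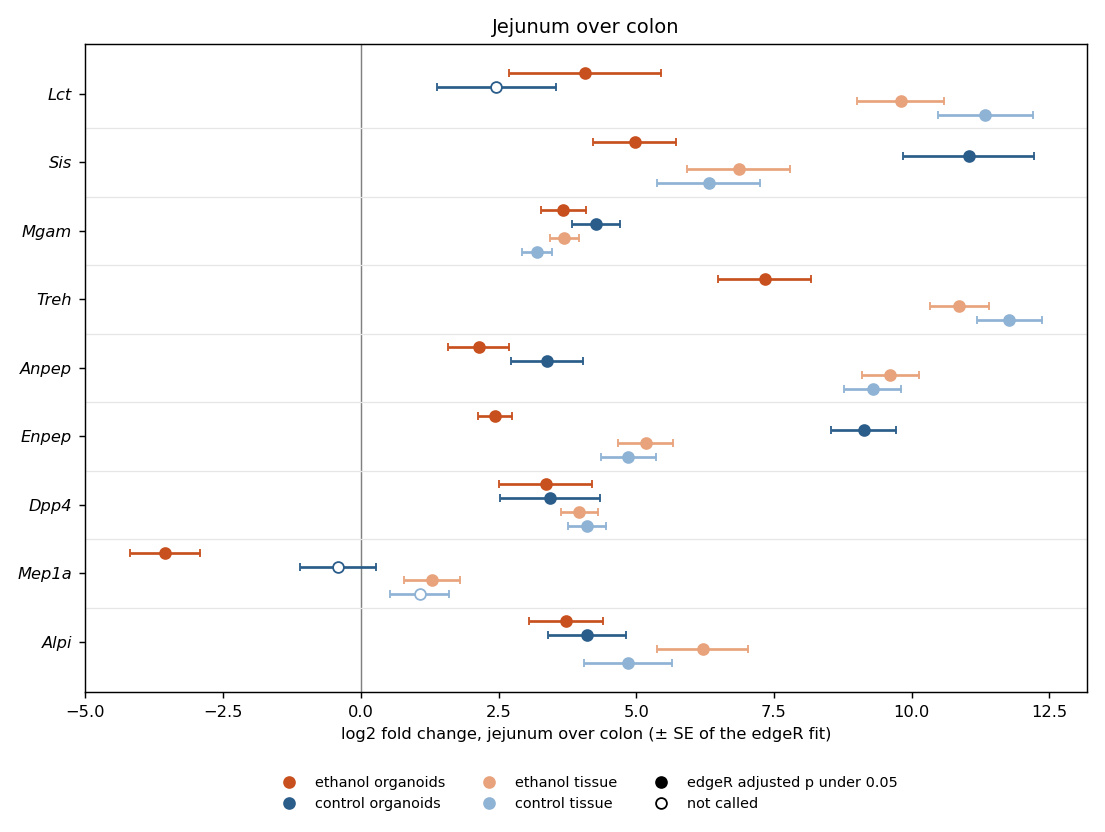
log2 fold change of jejunum over colon, with an SE worked back from the edgeR test. Each gene is shown in ethanol organoids, control organoids, ethanol tissue and control tissue, filled where called. Treh in control organoids is left out because it had 0 counts in control colon organoids. Nearly all points lie to the right of 0, and Mep1a lies at -3.55 in ethanol organoids.

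In organoids most members were again higher in jejunum than in colon. In ethanol organoids 8 of 9 genes were higher in jejunum than in colon and Mep1a was lower, where 20.3% of all genes were called higher and 25.6% lower. In control organoids 7 of 9 were higher, where 26.1% of all genes were. For 8 of the 9 genes, all but Mep1a, every jejunum organoid lay above every colon organoid of the same treatment, against 32.6% of all genes for ethanol and 28.8% for control. The median log2 fold change of the members was 3.68 in ethanol organoids and, with Treh left out for its 0 counts, 3.77 in control organoids, against -0.07 and 0.10 over all genes. Sis had 936, 1282, 1008 and 376 CPM in ethanol jejunum organoids against 45.4 and 10.4 CPM in ethanol colon organoids. In control organoids Sis had 923, 2443, 698 and 1251 CPM in jejunum against 0.491 and 1.22 CPM in colon, which is 1 count in each colon library. Jejunum libraries lay above colon libraries throughout, by 4.97 ± 0.76 on the log2 scale in ethanol organoids (adjusted p = 0.000326) and at a ratio of 1838 in control organoids (95% exact interval 509 to 15180, counting error only).

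Mgam was higher in jejunum organoids by 3.68 ± 0.41 for ethanol and 4.27 ± 0.43 for control, with 395 to 554 and 290 to 865 CPM. Treh had 23.3 to 56.4 CPM in ethanol jejunum organoids against 1 count in the ethanol colon organoids. In control jejunum organoids Treh had 21.6 to 41.3 CPM, and it was at least 31.2-fold higher than in control colon organoids, whose 0 counts were set to a floor of 3 counts over the group. Reads of Treh and of Phldb1, which overlaps it on the other strand, cannot be told apart if strand was not used in counting. Phldb1 had 1278 counts in ethanol colon tissue and 1277 in control colon tissue, where Treh had 3 and 1.

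Lct was scarce in every organoid library. It had 6.88, 4.57, 4.29 and 1.16 CPM in ethanol jejunum organoids and 0.352 and 0 CPM in ethanol colon organoids, a called difference (4.07 ± 1.38, adjusted p = 0.0307) that rests on 1 count in the colon and was lost on leaving out either colon library or ethanol jejunum organoid 1, 2 or 3 (0.0510 to 0.126), with a log2 fold change of 6.95 without ethanol colon organoid 1. In control organoids it had 5.89, 13.5, 2.75 and 7.39 CPM in jejunum and 2.46 and 0 CPM in colon, which was not called (2.46 ± 1.08, 0.0763) but was with limma-voom (0.0395) and without control colon organoid 1 (0.0355).

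Among the peptidases, Anpep, Enpep and Dpp4 were higher in jejunum organoids by 2.14 ± 0.56, 2.43 ± 0.31 and 3.35 ± 0.85 for ethanol, and Anpep and Dpp4 by 3.37 ± 0.65 and 3.44 ± 0.90 for control. Enpep had 129, 202, 228 and 182 CPM in control jejunum organoids against 0.491 and 0 CPM in control colon organoids, a ratio of 518 (95% exact interval 93.0 to 20480). Alpi was higher by 3.72 ± 0.67 for ethanol and 4.11 ± 0.71 for control. In control colon organoids each of Anpep, Dpp4 and Alpi had all its counts in 1 of the 2 libraries, so its fold change rests on that library. Anpep was at 10.57 without control colon organoid 1 and 2.67 without 2. Dpp4 was at 2.15 without 1 and 11.54 without 2, and Alpi at 11.64 without 1 and 3.40 without 2. The larger value of each gene is against 0 counts in the colon. With the donor number as a block, the calls of Lct, Anpep and Dpp4 in ethanol organoids (0.236, 0.191 and 0.122) and of Anpep and Dpp4 in control organoids (0.0755 and 0.0988) were lost. Their log2 fold changes under the block were 4.73, 2.15 and 3.71 for ethanol and 3.70 and 4.26 for control. The block lowered the calls among all genes too, to 6.98% for ethanol and 8.23% for control in both directions together. Leaving out 1 ethanol colon organoid also ended the calls of Anpep (0.0535 without replicate 1 and 0.0549 without replicate 2) and Dpp4 (0.0665 without replicate 2), and Dpp4 in control organoids lost its call with the groups fitted alone (0.0661).

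Mep1a ran the other way in ethanol organoids. It had 25.6, 26.0, 42.5 and 28.8 CPM in jejunum organoids and 423 and 317 CPM in colon organoids, with no overlap, or -3.55 ± 0.63 on the log2 scale (adjusted p = 0.000922). In control organoids it had 18.1, 39.2, 35.8 and 35.4 CPM in jejunum and 5.40 and 112 CPM in colon, and the difference was not called (-0.42 ± 0.69, 0.643). The 2 control colon organoids lay on either side of the jejunum range. Without the library at 112 CPM the log2 fold change was 2.74 (0.00107), and without the library at 5.40 CPM it was -1.43 (0.00359).

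Organoids were then set against the tissue of the same segment and treatment. In the jejunum 8 of the 9 genes were lower in organoids than in tissue in both treatments, where 35.2% of all genes were called lower for ethanol and 29.7% for control, and 18.8% and 21.6% higher. The exception was Sis in both. The median log2 fold change of the members, organoid over tissue, was -2.90 for ethanol and -2.78 for control, against -0.36 and -0.02 over all genes.

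The sizes differed widely between members. Lct averaged 4.22 ± 2.35 CPM in ethanol jejunum organoids (SD, n = 4) against 2617 ± 1199 CPM in ethanol jejunum tissue (SD, n = 4), or -9.70 ± 0.75 on the log2 scale (adjusted p = 3.33e-10). In control mice it averaged 7.38 ± 4.50 CPM in organoids (SD, n = 4) and 3903 ± 825 CPM in tissue (SD, n = 3), or -9.43 ± 0.74 (4.99e-10). Lct thus stood 9927th and 9226th among all genes in ethanol and control jejunum organoids. Anpep was lower in organoids, at -6.24 ± 0.46 on the log2 scale for ethanol and -6.80 ± 0.48 for control, and so was Mep1a, at -4.94 ± 0.65 and -5.38 ± 0.68. The smallest called differences were those of Mgam, at -1.81 ± 0.26 for ethanol and -1.41 ± 0.27 for control. Enpep, Dpp4, Alpi and Treh lay between, at -2.13 to -3.20, and for each of the 8 genes every organoid library lay below every tissue library, as it did for 23.1% of all genes for ethanol and 20.5% for control.

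Sis averaged 901 ± 380 CPM in ethanol jejunum organoids against 448 ± 123 CPM in ethanol jejunum tissue (SD, n = 4 each), with overlapping ranges and a difference of 0.49 ± 0.64 on the log2 scale (adjusted p = 0.538). In control mice it averaged 1329 ± 777 CPM in organoids (SD, n = 4) and 361 ± 110 CPM in tissue (SD, n = 3). All control organoids lay above all control tissues, and the log2 fold change of 1.47 ± 0.72 was not called (0.0936). It was called with limma-voom (0.0377), with library sizes without TMM (0.0312), with the 2 groups fitted alone (0.00249) and without control jejunum organoid 3 (0.0467). Within a library, Sis had 136 to 323 times the counts of Lct in ethanol jejunum organoids and 157 to 254 times in control jejunum organoids. In tissue the same ratio was 0.101 to 0.431 for ethanol and 0.0680 to 0.113 for control, so that the order of the 2 genes was opposite in every organoid and every tissue library of the jejunum.

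**Figure D4:**
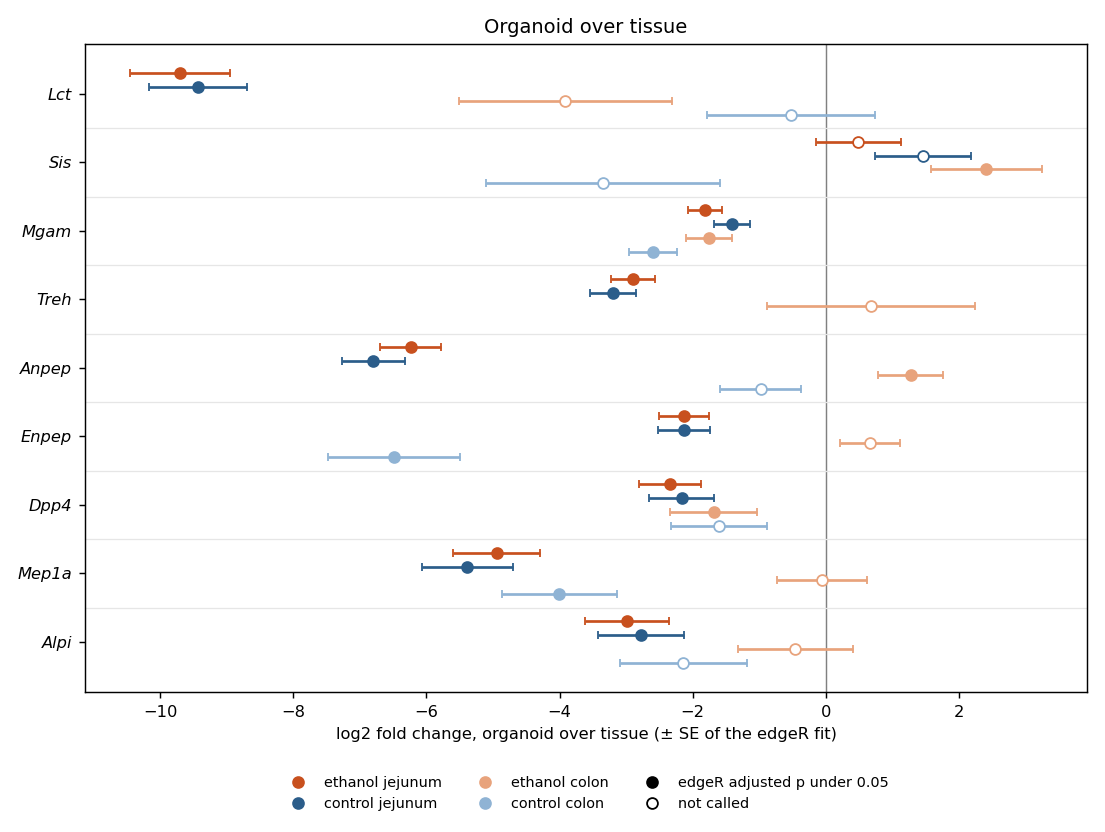
log2 fold change of organoid over tissue, with an SE worked back from the edgeR test. Each gene is shown in ethanol jejunum, control jejunum, ethanol colon and control colon, filled where called. Treh in control colon is left out because it had 0 counts in the organoids. In the jejunum Lct lies near -9.70 and -9.43 and Sis right of 0.

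In the colon fewer members differed between organoid and tissue. In ethanol mice Sis and Anpep were higher in organoids (2.42 ± 0.83 and 1.28 ± 0.49, adjusted p = 0.0298 and 0.0473). Mgam and Dpp4 were lower (-1.75 ± 0.35 and -1.68 ± 0.65, 0.000405 and 0.0498). Of all genes 14.6% were called higher and 18.7% lower, and 2 of 9 in each direction is near these shares. Sis, Anpep and Dpp4 lost their calls with limma-voom, without the filter on low counts, with the 2 groups fitted alone and with the donor number as a block (0.05004 to 0.269). Sis also lost its call without ethanol colon organoid 1 (0.657) or ethanol colon tissue 1 or 2 (0.0639 and 0.0632), and Dpp4 without ethanol colon organoid 2 (0.340) or ethanol colon tissue 2, 3 or 4 (0.0534 to 0.0960). Anpep lost its call without either ethanol colon organoid (0.184 and 0.133) or ethanol colon tissue 1, 2 or 4 (0.0691 to 0.0825). Mgam, at 37.6 and 40.9 CPM in ethanol colon organoids and 116 to 172 CPM in ethanol colon tissue, kept its call in each of these settings. Without ethanol colon organoid 1 the log2 fold change of Sis was 0.85 and that of Dpp4 -3.27, and without ethanol colon organoid 2 that of Dpp4 was -1.08. Lct had 0.352 and 0 CPM in ethanol colon organoids, a single count, against 9.10, 4.16, 2.70 and 1.61 CPM in ethanol colon tissue. Every organoid library lay below every tissue library, and the difference of -3.91 ± 1.60 was not called (0.0616). It was called with the donor number as a block (-4.45, 0.00905), with DESeq2 (0.0356), with limma-voom (0.0467) and without ethanol colon tissue 4 (0.0450).

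In control mice Mgam, Enpep and Mep1a were lower in colon organoids than in colon tissue, where 31.7% of all genes were called lower. Mgam had 37.8 and 25.7 CPM in organoids against 121 to 180 CPM in tissue (-2.59 ± 0.37, adjusted p = 4.18e-06). Enpep had 0.491 and 0 CPM in organoids, a single count in all, against 24.2 to 36.1 CPM in tissue, a ratio of 0.0120 (95% exact interval 0.000304 to 0.0674). Mep1a had 5.40 and 112 CPM in organoids against 350 to 895 CPM in tissue (-4.002 ± 0.86, 0.000735), and the log2 fold change was -7.13 without control colon organoid 2. Both control colon organoids lay below every control colon tissue for these 3 genes. The share of all genes with such a separation was not counted, and 3 of 9 called lower is near the 31.7% of all genes. On leaving out 1 library the calls of other members changed. Anpep stood at -8.06 and Alpi at -9.53 without control colon organoid 1, and Dpp4 at -9.62 without control colon organoid 2. Each left-out library held all of that gene's counts in its group, so these values are for 0 organoid counts. Without control colon tissue 1, the library of its group highest in smooth muscle markers, Sis (-3.69, 0.0355) and Alpi (-2.34, 0.0360) were called.

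Whether the jejunum over colon difference itself differed between organoids and tissue was tested as a difference of differences. In control mice it was smaller in organoids for Lct (-8.91 ± 2.12, adjusted p = 0.00174) and Anpep (-5.82 ± 0.79, 2e-06). It was larger for Sis (4.81 ± 1.84, 0.0408), Mgam (1.18 ± 0.44, 0.0316) and Enpep (4.37 ± 1.22, 0.00557). Of all genes 25.3% were called higher and 15.2% lower, and 3 and 2 of 9 are near these shares. The calls of Sis and Mgam were lost with the donor number as a block (0.136 and 0.0934) and with limma-voom (0.324 and 0.196). Sis also lost its call without the filter on low counts (0.0750) and on leaving out either control colon organoid, control jejunum organoid 2, control colon tissue 2 or 3, or control jejunum tissue 2 or 3 (0.0514 to 0.222). Mgam also lost its call with DESeq2 (0.0582), with the groups fitted alone (0.0563) and on leaving out control colon organoid 2, control jejunum organoid 2 or control jejunum tissue 1 or 3 (0.0548 to 0.179). The Anpep difference was 1.43 without control colon organoid 1, the library with all of its counts in that group. That of Dpp4, not called at -0.56 ± 0.87, was -1.81 without control colon organoid 1. It was 7.46 without control colon organoid 2, which held all Dpp4 counts of that group. Enpep was at 7.69 without control colon organoid 1, which held the only Enpep count of that group. Without the same library Mep1a, not called in the main fit, was at -2.37. The Lct call was lost without control colon organoid 1 (0.9999), the library that holds all 5 of its counts in that group. In ethanol mice the difference was smaller in organoids for Anpep (-7.52 ± 0.64, 1.71e-09), Enpep (-2.79 ± 0.57, 0.000341) and Mep1a (-4.89 ± 0.87, 0.000115). These 3 of 9 are near the 23.7% of all genes called lower. For Lct in ethanol mice it was -5.79 ± 3.99 and not called (0.259), and DESeq2 and limma-voom called it (0.00506 and 0.00019). DESeq2 also called Alpi (-2.42, 0.0285) and limma-voom Treh (-4.52, 0.000718), which the main edgeR fit did not call. In control mice limma-voom called Treh (-4.25, 0.001485), which had 0 counts in control colon organoids. For Enpep the tested difference was positive in control mice and negative in ethanol mice, and the 2 control colon organoids held 1 Enpep count.

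Other genes of the pathway were counted in the same comparisons. Of all genes, 22.1% were called higher in jejunum than in colon tissue for ethanol and 17.1% for control. In jejunum organoids 35.2% of all genes were called lower than in tissue for ethanol and 29.7% for control. Of 12 tested among 16 other hydrolases of the luminal surface, 12 were higher in jejunum than in colon tissue in ethanol mice and 12 in control mice, Mme (neprilysin, an endopeptidase) averaging 472 against 1.80 CPM and 387 against 0.750 CPM. Their median log2 fold change, without Enpp7, which was at 0 in a group, was 6.00 and 5.96, against -0.17 and -0.36 over all genes. In jejunum organoids 11 of the 12 were lower than in tissue for ethanol and 12 for control. Their medians were -3.76 and -4.21, against -0.36 and -0.02 over all genes. Plb1, a brush border phospholipase, averaged 0.957 CPM in organoids and 732 CPM in tissue for ethanol, and 1.02 and 1116 CPM for control. Of 11 tested uptake transporters, 8 and 7 were lower in organoids than in tissue of the jejunum for ethanol and control. Slc15a1, the peptide transporter, averaged 8.49 CPM in organoids and 1532 CPM in tissue for ethanol, and 5.39 and 1930 CPM for control, and Slc5a1, the sodium-glucose transporter, averaged 679 and 3067 CPM for ethanol and 945 and 2973 CPM for control. All 11 genes of brush border structure were lower in jejunum organoids in both treatments, the actin bundler Espn averaging 21.8 and 730 CPM for ethanol and 19.1 and 1051 CPM for control.

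Ethanol was compared with control within each segment and culture. In colon organoids 3 of the 9 genes rose with ethanol and none fell, where 12.1% of all genes were called higher and 5.19% lower. These were Enpep, Sis and Mep1a. Enpep had 48.5 and 43.1 CPM in ethanol colon organoids and 0.491 and 0 CPM in control colon organoids. This is 196 counts against 1, a ratio of 134 (95% exact interval 23.7 to 5302, counting error only), with an adjusted p of 0.000127. Sis had 45.4 and 10.4 CPM in ethanol and 0.491 and 1.22 CPM in control colon organoids, which is 143 counts against 2 and a ratio of 48.7 (13.2 to 406, adjusted p = 0.0158). Mep1a had 423 and 317 CPM in ethanol and 5.40 and 112 CPM in control colon organoids, or 3.06 ± 0.83 on the log2 scale (0.0253). In all 3 genes, and in Anpep (19.0 and 19.3 against 9.33 and 0 CPM, 1.86 ± 0.71, 0.0930, not called), both ethanol libraries lay above both control libraries, as did 21.7% of all genes.

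The main fit took its spread from colon and jejunum organoids together. With only the 4 colon organoid libraries fitted none of the 3 was called (adjusted p = 0.559 for Enpep, 0.629 for Sis and Mep1a). Nor was any other of the 10712 genes that this edgeR fit tested. Its log2 fold changes were 7.09 for Enpep, 5.33 for Sis and 3.06 for Mep1a. DESeq2 called 4 of the 9 genes and limma-voom 2, against 22.5% and 19.4% of all genes. On leaving out single libraries the log2 fold change of Enpep lay between 6.58 and 10.33. It rests on 1 control count throughout, or on 0 counts without control colon organoid 1. Sis lost its call without ethanol colon organoid 1 (0.130), without control colon organoid 1 (0.108) and with limma-voom (0.206). Mep1a lost it without ethanol colon organoid 1 (0.0776) or 2 (0.0538), without the filter on low counts (0.0568) and with the donor number as a block (0.0506), and its log2 fold change was 6.22 without control colon organoid 2 and 2.05 without control colon organoid 1. Anpep was called without control colon organoid 1 (9.06, 0.00387) and Dpp4 without control colon organoid 2 (8.33, 0.00395), the libraries that hold all of that gene's counts in the group.

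The remaining members of the set in colon organoids gave values on either side of 0. Mgam had 37.6 and 40.9 CPM in ethanol and 37.8 and 25.7 CPM in control colon organoids (0.47 ± 0.43, adjusted p = 0.509). Dpp4 had 15.8 and 3.72 CPM against 0 and 29.3 CPM, Alpi 11.6 and 7.43 CPM against 11.8 and 0 CPM, and Lct 0.352 and 0 CPM against 2.46 and 0 CPM. Treh had 1 count against 0, both under the floor of 3 counts. The median log2 fold change of the 8 members other than Treh was 1.22, against 0.11 over all genes.

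Other measures moved with ethanol in the same colon organoid libraries. The summed CPM of 7 colonocyte markers was 8616 and 12750 in ethanol and 1063 and 2681 in control colon organoids, that of 7 general epithelial markers 10920 and 11410 against 6769 and 9546, and that of 11 brush border structure genes 4932 and 6089 against 2098 and 3307. Of 8 immune markers, summed at 126 and 465.6 CPM in ethanol and 18.3 and 90.9 CPM in control colon organoids, Cd3e, Cd8a, Cd79a and Itgax were at 0 in all 4 libraries, and the macrophage receptor gene Csf1r averaged 212 against 30.5 CPM. Taken as a percent of the summed epithelial markers, Enpep averaged 0.411% in ethanol and 0.00363% in control colon organoids, and Mep1a 3.32% and 0.629%. The exact two-sided permutation p was 0.333 for each, the smallest that 2 libraries against 2 allow. The part of these markers, and of the lower depth of the control libraries, in the 3 calls was not tested.

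Related genes in ethanol colon organoids behaved as follows. The counts that follow are set against the 12.1% of all genes called higher and 5.19% called lower in these organoids. Of 10 tested other hydrolases 3 rose, among them Dpep1, a dipeptidase (86.3 against 26.4 CPM), and Asah2, a ceramidase (34.7 against 5.50 CPM). Of 11 tested uptake genes 6 rose, among them Slc3a1 (76.9 against 6.14 CPM) and Slc15a1 (25.7 against 0.737 CPM). Of 16 transcription factors of the enzyme genes 7 rose and 1 fell. Cdx1 averaged 58.9 against 10.4 CPM and Hnf4a 140 against 73.4 CPM, whereas Gata4 fell, averaging 1.23 against 15.5 CPM. Gata4 is a factor of the proximal intestine, and it averaged 0.220 CPM in ethanol and 0.141 CPM in control colon tissue.

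**Figure D5:**
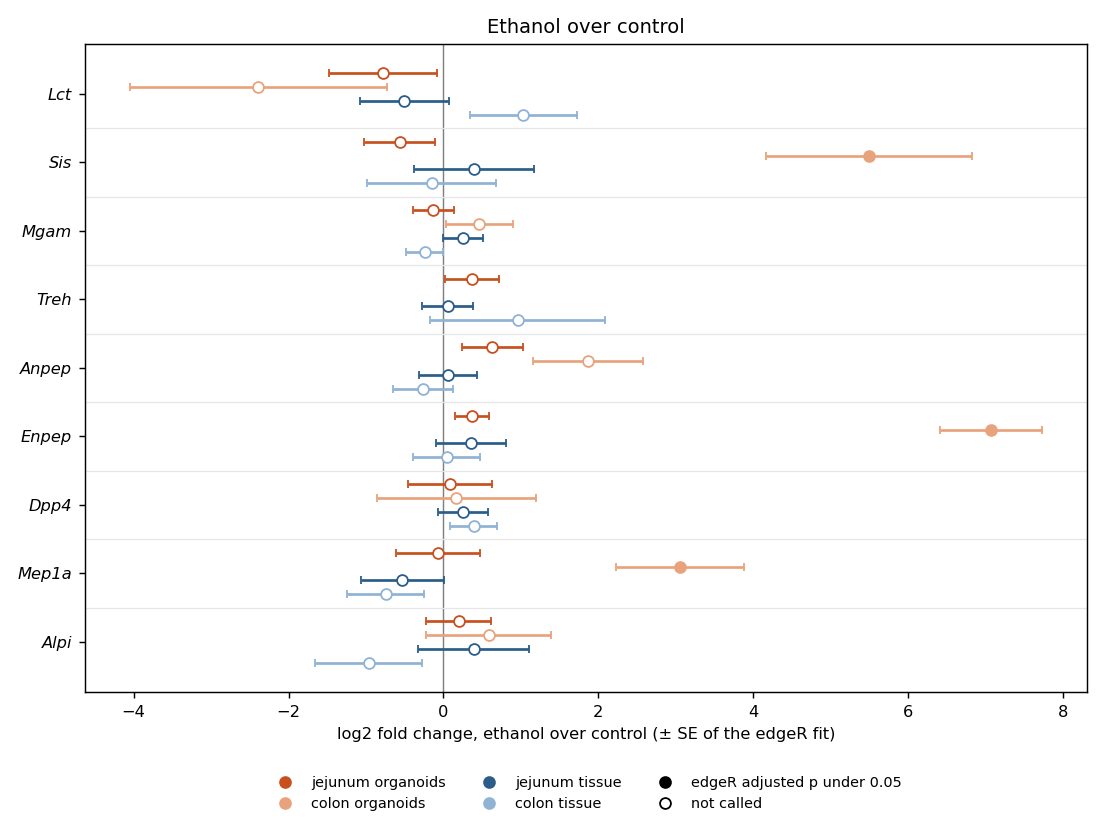
log2 fold change of ethanol over control, with an SE worked back from the edgeR test. Each gene is shown in jejunum organoids, colon organoids, jejunum tissue and colon tissue, filled where called. Treh in colon organoids is left out because it had 0 counts in the controls. Filled points are seen only for Sis, Enpep and Mep1a in colon organoids.

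In jejunum organoids, jejunum tissue and colon tissue edgeR called none of the 9 genes for ethanol. Of all genes tested it called 0% in jejunum organoids, 0% in jejunum tissue and 0.00744% in colon tissue, and 0 of the 9 had an unadjusted p under 0.05 in any of the 3. The unadjusted p was under 0.05 for 144 of all genes in jejunum organoids, 1534 in jejunum tissue and 324 in colon tissue, and DESeq2 called 1, 30 and 2. DESeq2 and limma-voom called 0 of the 9 as well, and the ethanol and control ranges overlapped for all 9 genes in each. In jejunum tissue the largest of the differences was that of Mep1a, at 639 ± 369 CPM in ethanol (SD, n = 4) and 980 ± 475 CPM in control mice (SD, n = 3), or -0.53 ± 0.54 on the log2 scale. Lct came next, at -0.50 ± 0.58 (adjusted p = 0.794). The lowest Lct libraries of jejunum tissue, at 1431 and 2024 CPM, were ethanol libraries, and the highest ethanol library, at 4203 CPM, lay within the control range of 2954 to 4446 CPM. In jejunum organoids Lct was at -0.78 ± 0.69 and Sis at -0.56 ± 0.46. In colon tissue Lct was at 1.03 ± 0.69, Alpi at -0.97 ± 0.70 and Mep1a at -0.75 ± 0.50.

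Levels relative to the summed epithelial markers were compared with 36 exact two-sided permutation tests, whose smallest adjusted p was 0.836. The smallest unadjusted p the designs allow is 0.0286 for 4 libraries against 4, 0.0571 for 4 against 3 and 0.333 for 2 against 2, so no single gene could have passed after adjustment over 36 tests, and these tests do not show that a difference was absent. Lct averaged 29.6 ± 17.9% of that sum in ethanol jejunum tissue (SD, n = 4) and 43.8 ± 15.4% in control jejunum tissue (SD, n = 3), and Anpep 46.4 ± 12.9% and 44.8 ± 13.5%.

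Set against each other, the ethanol effects in colon and in jejunum organoids differed for Enpep (6.70 ± 0.73, adjusted p = 0.00063) and Sis (6.06 ± 1.42, 0.0210), where 7.20% of all genes were called higher. For Mep1a the difference was 3.13 ± 0.97 and not called (0.0637), and DESeq2 and limma-voom called it (0.0322 and 0.00805). It was also called on leaving out either control colon organoid, at 2.12 without 1 (0.00387) and 6.29 without 2 (3.63e-05). Anpep stood at 8.43 without control colon organoid 1 and Dpp4 at 8.25 without control colon organoid 2, each against 0 counts in the control colon organoid left. The Sis call was lost without ethanol colon organoid 1 (0.117) or control colon organoid 1 (0.0894), with limma-voom (0.200), without the filter on low counts (0.0559) and with the donor number as a block (0.0614). In tissue such a difference was called for none of the 9 genes by edgeR, DESeq2 or limma-voom, nor for any at an unadjusted p under 0.05, where 0% of all genes were called and 894 had an unadjusted p under 0.05.

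Across the 8 groups the mean levels fell into an order for each gene. Lct averaged 2617 CPM in ethanol and 3903 CPM in control jejunum tissue, and the 6 other groups averaged 0.176 to 7.38 CPM, each overlapping its neighbour in the order. For Sis the jejunum organoids (901 CPM for ethanol and 1329 CPM for control) stood over the jejunum tissues (448 and 361 CPM), each group overlapping the next, and every jejunum library lay above every colon library. Mgam stepped down through jejunum tissue (1193 CPM for ethanol and 1074 CPM for control), jejunum organoids (485 and 530 CPM), colon tissue (136 and 153 CPM) and colon organoids (39.3 and 31.7 CPM), with no overlap between steps that neighbour each other and overlap of the treatments within each. Anpep, Dpp4, Enpep, Alpi and Treh had jejunum tissue first and jejunum organoids next, again without overlap between these steps or with the colon groups. For Mep1a the jejunum tissues (639 CPM for ethanol and 980 CPM for control), the colon tissues (388 and 633 CPM) and the ethanol colon organoids (370 CPM) formed an unbroken run of overlapping groups, above the control colon organoids (58.9 CPM) and the jejunum organoids (30.7 and 32.1 CPM).

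The genes whose mean level over the 8 groups ran closest to the average of the 9 members were Npl, Cyp4v3, Slc7a9, Smpdl3b and Gata5. Their root mean square differences on the centred log2 scale were 0.400, 0.466, 0.467, 0.553 and 0.583, among 11226 other genes of at least 5 CPM. By single member the nearest gene was Plb1 for Lct (0.918), Bcl2l15 for Sis (0.514), Dnase1 for Anpep (0.643), Mgam's was Slc7a8 (0.242), Dpp4's was Slc25a15 (0.274), Enpep's was Creb3l3 (0.541), Mep1a's was Ifi203 (0.416), Alpi's was Npl (0.415) and Treh's was Adh6a (0.327). Within the set Mgam and Dpp4 were most alike (0.430), and Sis and Mep1a least (4.32). These distances rest on 8 group means and carry no test.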

How the data were processed

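The libraries were 3' mRNA tag libraries of 27 mouse samples, and the authors' deposited table holds raw read counts for 23420 genes. Per the submitters' processing notes the reads were handled with Trimmomatic 0.32, BWA and HTSeq against mm10, with edgeR and limma; the sources used here do not give the strand setting of the counting. A second table of normalized values, read here as a score because no source used here names its scale, was deposited by the authors for 13560 genes with 21.25% of its values blank, and it entered only an alternative. Levels are CPM outside Rn45s without TMM. Tests used edgeR 4.0.16 (quasi-likelihood, TMM, filterByExpr, Benjamini-Hochberg adjustment over all genes tested, threshold 0.05) in R 4.3.3. They covered 12922 genes in organoids, 13434 in tissue and 14785 in both. A check on simulated data planted changes in the ethanol jejunum groups only. It does not show how well changes are found in the colon groups or in the fit of all libraries. DESeq2 1.42.0, limma 3.58.1 with voom, other scalings, no filter, single groups, left-out libraries and a block were alternatives. CPM and fitted fold changes can differ in size because TMM enters the fits alone.

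All 9 genes were tested in every comparison, and members that were not called are named in some comparisons only. From the other gene lists up to 4 called genes by smallest p are named. The genes of most similar profile were taken by root mean square difference of log2(group mean CPM + 1). Some called genes are not reported here. The members and lists were chosen with earlier results of these data known. Each library carries a donor number, which recurs under both treatments. Between ethanol and control the numbers mark different mice, and the main tests assumed no pairing. In the ethanol comparisons the block joined equal numbers of ethanol and control mice, so it does not stand for a true pairing. For segment and for organoid over tissue the block was the number within treatment. Within a treatment a shared number may mark the same mouse, which the labels do not state, and the correlations lay between -0.09 and 0.12; blocked values are given where a call changed. All 35 pairs of replicates differed beyond sampling noise. P-values measure the spread between these libraries, which the main fits estimated for each gene over all their groups together. For colon organoids, with 2 libraries a group, that estimate also took in the jejunum organoids. Exact Clopper-Pearson intervals and floors of 3 counts cover counting error only, since the reads are not independent molecules.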

Additional observations from a re-analysis of the deposited data

Results flagged for a closer look

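In 4 of 45 groups of at least 4 libraries the highest library stood apart from the others by Dixon's criterion, which chance meets in about 1 in 20 groups. Lct reached 6.22 CPM in control colon tissue 2, where the other 3 libraries had at most 0.945 CPM. Mgam reached 1687 CPM in ethanol jejunum tissue 2, where the others had 988 to 1088 CPM. Treh reached 0.683 CPM in ethanol colon tissue 1 and 0.274 CPM in control colon tissue 3, each with the others of its group at 0. These are 3 counts and 1 count. The criterion is always met where only 1 library of a group is above 0, so the rate of 1 in 20 does not apply to Treh.

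The ethanol effect, colon minus jejunum, differed in organoids for Sis (6.06 on the log2 scale) and Enpep (6.70). The jejunum over colon difference, organoid minus tissue, differed in control mice for Lct (-8.91), Sis (4.81), Anpep (-5.82), Mgam (1.18) and Enpep (4.37), and in ethanol mice for Anpep (-7.52), Enpep (-2.79) and Mep1a (-4.89). The control colon organoids, which enter every difference of control mice and both ethanol effects, held 5 counts of Lct and 19 of Anpep, each in 1 library, 2 of Sis and 1 of Enpep.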

How the results depend on the processing

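Counts below are of the 9 genes called by edgeR, unless another method is named. Shares of all genes called are for both directions together. For ethanol in colon organoids the share was 0% with only those groups fitted and 9.14% with the block. For the ethanol effect, colon minus jejunum, in organoids it was 4.86% without the filter, 9.78% in the normalized table and 3.22% with the block. Ethanol in colon organoids gave 3, against 0 with only those groups fitted, 2 with the replicate block and 1 to 4 on leaving out single libraries. The other ethanol comparisons gave 0, also with the block and on leaving out libraries. The ethanol effect, colon minus jejunum, in organoids gave 2, against 1 without the filter, 0 in the deposited normalized table, 1 with the block and 1 to 4 on leaving out libraries. For jejunum over colon edgeR called 9 in ethanol organoids, 7 in control organoids, 9 in ethanol tissue and 8 in control tissue. The blanks of the deposited normalized table left fewer genes to test there. Of these members it called 3 of 3, 2 of 3, 4 of 5 and 4 of 5, against 48.2, 47.4, 42.7 and 40.7% of all genes. With the block 6.98, 8.23, 42 and 32.7% of all genes were called. The block gave 6, 5, 9 and 9 in the same order, and left-out libraries 6 to 9, 7 to 9, 8 to 9 and 8. For organoid over tissue the jejunum gave 8 in both treatments, 8 under the block, and 8 (ethanol) and 8 to 9 (control) on leaving out libraries. Ethanol colon gave 4, against 2 with limma-voom, 1 without the filter, 1 with the groups alone, 2 with the block and 1 to 3 on leaving out libraries. Control colon gave 3, against 5 with DESeq2, 3 with the block and 3 to 5 on leaving out libraries. The segment difference, organoid minus tissue, gave 5 in control mice, against 3 with the block and 3 to 5 on leaving out libraries, and 3 in ethanol mice, against 5 with DESeq2, 5 with limma-voom, 3 with the block and 3 to 4 on leaving out libraries. Of all genes, organoid over tissue in ethanol colon called 35.7% with limma-voom and 26.6% without the filter. It called 29.6% with the groups alone and 24% with the block. In control colon the shares were 45% with DESeq2 and 35.2% with the block. For the segment difference the block called 33% in control mice. In ethanol mice DESeq2 called 42%, limma-voom 43.9% and the block 35.1%. The cause of the changes in these counts was not tested. Over single left-out libraries Mep1a in control organoids, jejunum over colon, ranged between -1.43 and 2.74, and in control mice the segment difference of Anpep ranged between -6.54 and 1.43 and that of Dpp4 between -1.81 and 7.46. Of 2239 member values under alternatives 83 lost their call, 40 gained one, 3 changed sign where 1 of the values was called, and 90 changed sign with neither value called. Same-numbered libraries of ethanol and control correlated, in their deviations from the group means, at -0.14 to 0.56; in colon tissue 3 of 4 numbers exceeded 0.1 (0.56, 0.47 and 0.17, against -0.03), 2 of the 4 correlating best with their own number. Library sizes without TMM moved the median of all genes by -0.56 and -0.43 for jejunum over colon in ethanol and control tissue, and by 0.51 and 0.40 for organoid over tissue in ethanol and control jejunum. Control colon organoids, with 818240 to 2036195 counts outside Rn45s, limit what can be said of genes at 0 there.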

Other observations

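Transcription factors known to act on the enzyme genes moved in both directions between jejunum organoids and jejunum tissue. Cdx2 averaged 224 CPM in organoids and 56.5 CPM in tissue for ethanol, and 246 and 38.9 CPM for control. Hnf4a averaged 457 and 132 CPM for ethanol and 451 and 119 CPM for control. Gata5 averaged 23.9 and 134 CPM for ethanol and 27.2 and 136 CPM for control, and Hnf4g 194 and 554 CPM for ethanol and 177 and 505 CPM for control. Of 16 factors tested, 3 were higher and 7 lower in organoids for ethanol, and 4 higher and 6 lower for control (edgeR). These counts are near the shares of all genes, 18.8% and 21.6% called higher and 35.2% and 29.7% lower. Of 6 genes of crypt stem and cycling cells, 5 were higher in organoids in either treatment, Ascl2, a stem cell factor, averaging 36.9 against 6.21 CPM for ethanol and 36.0 against 2.84 CPM for control. Of 7 villus tip genes 6 were lower in organoids in either treatment, Ada, adenosine deaminase, averaging 6.93 against 634 CPM for ethanol and 7.46 against 479 CPM for control.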
